A study of Homo sapiens with 6 samples.

Results

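The regulators of the integrated stress response (ISR) examined here were 10 genes. They comprised the transcription factor ATF4, the partner factors ATF3, ATF5, DDIT3, CEBPB and CEBPG, and the stress effectors TRIB3, CHAC1, SESN2 and PPP1R15A. They were taken from the table by gene symbol, with no threshold on a measured value, but were chosen with earlier results of these data known. All 10 were present among the 58870 genes of the count table, and all 10 were among the 15088 genes that reached a counts-per-million value (CPM) of at least 1 in at least 3 of the 6 libraries and were tested. The libraries were made from HEK-293T, a line of immortalized cells from human embryonic kidney, grown in DMEM with no treatment named for either genotype. There were 3 libraries from wild-type cells (WT, labelled Thumpd+/+) and 3 from a CRISPR-Cas9 knockout of the THUMPD1 gene (THUMPD1 KO, labelled Thumpd-/-). THUMPD1 KO was a line grown from a single sorted cell, so that differences between clones and the effect of THUMPD1 loss cannot be told apart. The labels do not say whether libraries of a genotype came from separate cultures, so p values measure the spread between these libraries, which may be technical.

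In the ISR, stress kinases phosphorylate the initiation factor eIF2α, which lowers general translation while raising translation of the ATF4 mRNA through upstream open reading frames. ATF4 protein then binds DNA together with C/EBP family partners and raises transcription of genes for amino acid supply, tRNA charging, redox balance and, when stress persists, cell death. Some of these target genes close the loop: TRIB3 restrains ATF4, and PPP1R15A brings a phosphatase to eIF2α. RNA levels were measured here, and neither eIF2α phosphorylation nor ATF4 protein was.

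The targeted gene was examined first as a check of the labels. THUMPD1, the adaptor through which NAT10 acetylates tRNA, stood at 77.3, 84.6 and 80.8 CPM in WT replicates 1, 2 and 3 and at 10.2, 12.0 and 10.95 CPM in THUMPD1 KO replicates 1, 2 and 3. It fell by 2.87 on the log2 scale (SE 0.085, limma-voom adjusted p = 3.166e-08), and every THUMPD1 KO library lay below every WT library. An exact two-sided permutation test over the 20 groupings gave p = 0.1, and no smaller p is possible with 3 libraries in each genotype. Total expected counts ranged from 32225646 to 44099898 per library. Of the HEK-293T markers examined, VIM (258 to 312 CPM), KRT18 (23.4 to 41.2 CPM), NEFL (53.6 to 75.9 CPM) and KRT8 (4.61 to 7.31 CPM) were detected in all libraries, while NEFM was at 28.2 to 44.7 CPM in WT and 4.54 to 6.72 CPM in THUMPD1 KO. Of 8 markers of other cell types, COL1A2 had no count, COL1A1 was at 9.002 to 17.0 CPM, and the others did not exceed 0.383 CPM. The part of these marker differences in the results was not tested.

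Most of the ISR regulators were lower in THUMPD1 KO, and none of the transcription factors was called higher. ATF4 fell to 78.4% and CEBPB to 68.8% of the WT mean. CHAC1 and SESN2 had the lowest THUMPD1 KO levels relative to WT, at 39.1% and 62.3% of the WT mean, but the WT libraries were spread widely and neither passed the test in the fit with genotype alone. ATF5 and PPP1R15A were the 2 members with THUMPD1 KO means above WT. In bulk RNA, fewer cells that express a gene and less RNA per cell cannot be told apart.

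With genotype as the only term, 2 of the 10 regulators passed the test, ATF4 and CEBPB, both lower. The background was 26.7% of all genes tested called, 13.0% lower and 13.7% higher, so the share of regulators called was near that of the background. The median log2 fold change of the regulators was −0.30, against 0.02 for all genes tested. Libraries carry replicate numbers shared by both genotypes, and with these numbers as a block in the fit (paired by number), 8 of 10 passed, 7 lower and PPP1R15A higher. In the paired fit 35.1% of all genes were called, 16.7% lower and 18.4% higher. The members not called in the paired fit were ATF3 and ATF5. Taken pair by pair, 7 regulators were lower in THUMPD1 KO in all 3 pairs, compared with 26.2% of all genes. All THUMPD1 KO libraries lay below all WT libraries for ATF4, SESN2 and CEBPB, 3 of 10 members where 17.6% of all genes did so. No regulator had all THUMPD1 KO libraries above all WT libraries, which 24.5% of genes did.

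**Figure D1:**
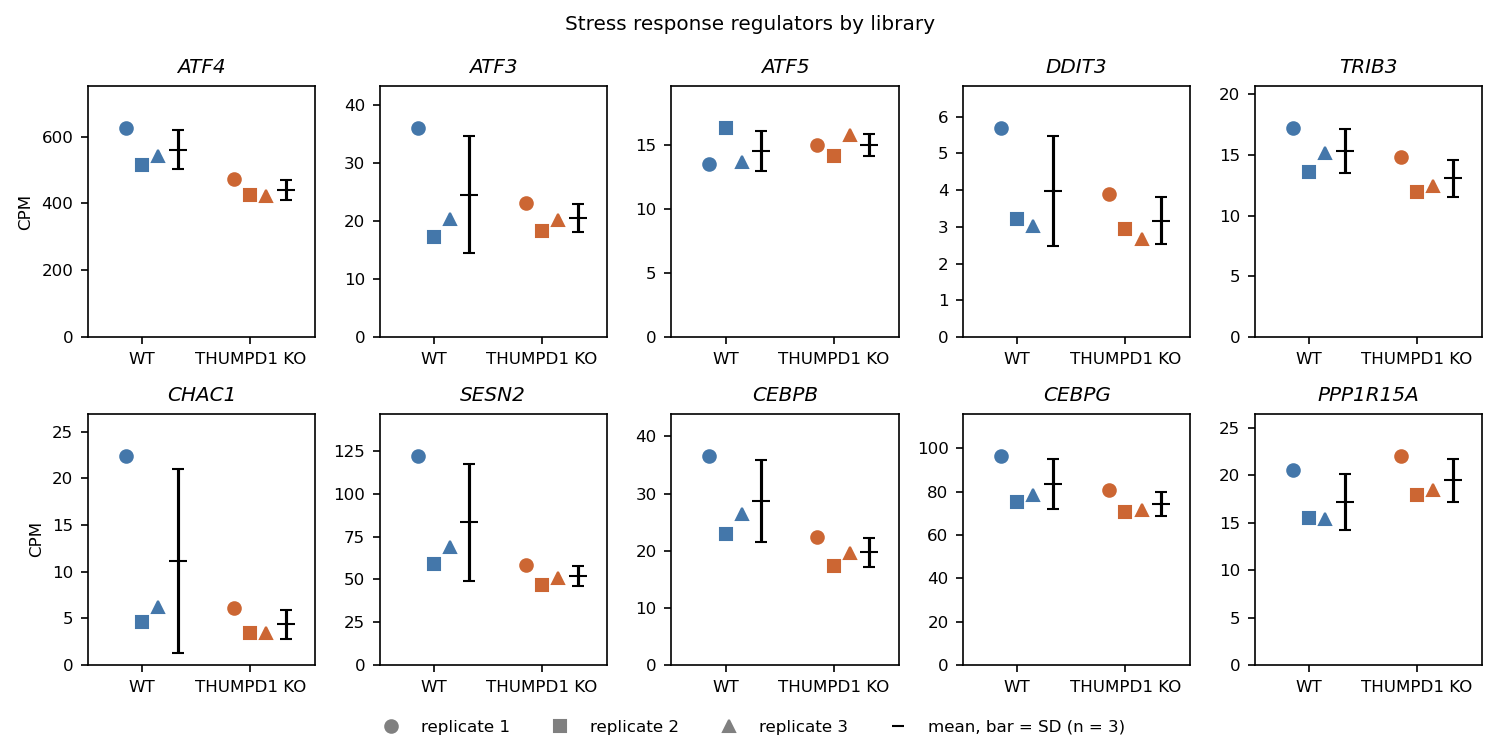
Level of each ISR regulator in CPM (y axis, from 0) in the 3 WT and 3 THUMPD1 KO libraries, with a symbol for each replicate number and the mean with SD (n = 3) beside each genotype. WT replicate 1 stands above the other WT libraries for CHAC1 (22.4 CPM), SESN2 (122 CPM) and ATF3 (36.0 CPM), and only ATF4, SESN2 and CEBPB show no overlap between genotypes.

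ATF4 acts on a composite DNA element shared by ATF and C/EBP factors, and the promoters of the regulators were therefore read for it. The windows were the 1000 bases upstream of RefSeq start sites on hg38, and each sequence was searched on both strands. The element was searched as TGATGCAA and, with a free base at 1 position, as TGATGNAA, which includes every match of the former. The cyclic AMP response element TGACGTCA, which reads the same on both strands, was searched as well. TGATGCAA was found for 4 of the 10 regulators, CEBPG, CHAC1, DDIT3 and TRIB3, and for 2.38% of the 10872 tested genes with a window. TGATGNAA was found for 6 of 10, with ATF3 and SESN2 added, and for 12.3% of tested genes. TGACGTCA was found for ATF3 and PPP1R15A and for 4.72% of tested genes. These shares describe letters in a window and not binding, and regulators were windowed at 19 start sites in all. The matches of TGATGCAA or TGATGNAA and the PPP1R15A match of TGACGTCA are printed here 5′ to 3′ on the strand of the gene, with the match in capitals. TTGCATCA and TTTCATCA are matches on the opposite strand. The distances are to a RefSeq start. Except for SESN2 and ATF3, the printed matches lie within the span that GENCODE gives for the gene. For CHAC1, TRIB3 and PPP1R15A, a GENCODE exon of the same gene touches the match or the 30 bases on either side.
CEBPG (chr19:33374041-33374108, plus strand, 42 bases upstream): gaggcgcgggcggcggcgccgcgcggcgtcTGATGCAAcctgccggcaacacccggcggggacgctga
DDIT3 (chr12:57520783-57520850, minus strand, 303 bases upstream): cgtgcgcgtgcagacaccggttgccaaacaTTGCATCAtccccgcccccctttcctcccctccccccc
CHAC1 (chr15:40953251-40953280, plus strand, 209 bases upstream): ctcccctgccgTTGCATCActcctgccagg
TRIB3 (chr20:380881-380910, chr20:380914-380943 and chr20:380947-380976, plus strand, 3 identical copies): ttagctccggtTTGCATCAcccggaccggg
SESN2 (chr1:28259192-28259259, plus strand, 296 bases upstream): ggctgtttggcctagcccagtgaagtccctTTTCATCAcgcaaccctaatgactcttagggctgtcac
ATF3 (chr1:212565186-212565253, plus strand, 191 bases upstream): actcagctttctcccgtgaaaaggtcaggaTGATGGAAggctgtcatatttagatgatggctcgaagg
PPP1R15A (chr19:48872352-48872381, plus strand, 58 bases upstream): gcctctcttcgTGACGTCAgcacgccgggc

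Expression of ATF4, the central factor of the response, was examined first. ATF4 (ENSG00000128272.14, GRCh38 chromosome 22, 39519695 to 39522683, plus strand) was the most abundant regulator per length, with 214.8 CPM per kilobase of exon in WT. Its level was 626.0, 516 and 542 CPM in WT replicates 1, 2 and 3 and 473, 425 and 422 CPM in THUMPD1 KO replicates 1, 2 and 3. The genotypes did not overlap, and replicate 1 was the highest library of each. With means of 561 CPM ± 57.5 and 440 CPM ± 28.6 (SD, n = 3 each), ATF4 fell by 0.37 on the log2 scale (SE 0.079, limma-voom adjusted p = 0.00604). The ratio of THUMPD1 KO to WT was 0.756, 0.823 and 0.780 in pairs 1, 2 and 3. Some reads of ATF4 could match its processed pseudogenes ATF4P1 to ATF4P4, but none of these exceeded 30.4 counts in any library, where ATF4 had 13608 to 26368.

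Genes around ATF4 were lower as well. Of the 40 tested genes nearest to it, 37 had a negative log2 fold change, with a median of −0.27. On the whole of chromosome 22, 352 of 374 tested genes (94.1%) were lower, with a median of −0.34. ATF4 differed from the median of its neighbours by −0.10, where its own standard error was 0.079, and 11 of the 40 neighbours were lower than ATF4. CHAC1, SESN2 and CEBPB lay farthest below their neighbours, with larger standard errors of 0.514, 0.218 and 0.147. CHAC1, on chromosome 15, differed from the median of its 40 neighbours by −1.14, SESN2, on chromosome 1, by −0.60 and CEBPB, on chromosome 20, by −0.56. For SESN2 0 of 40 neighbours had a lower log2 fold change, and for CHAC1 and CEBPB 1 of 40 each. DDIT3, ATF3, TRIB3 and CEBPG also lay below the median of their neighbours, by −0.29, −0.28, −0.27 and −0.19, and ATF5 lay 0.07 above. PPP1R15A, on chromosome 19, lay 0.28 above its neighbours, 36 of 40 of which were lower. These differences from neighbours were not tested, and the copy number of chromosome 22 in the clone was not measured here.

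**Figure D2:**
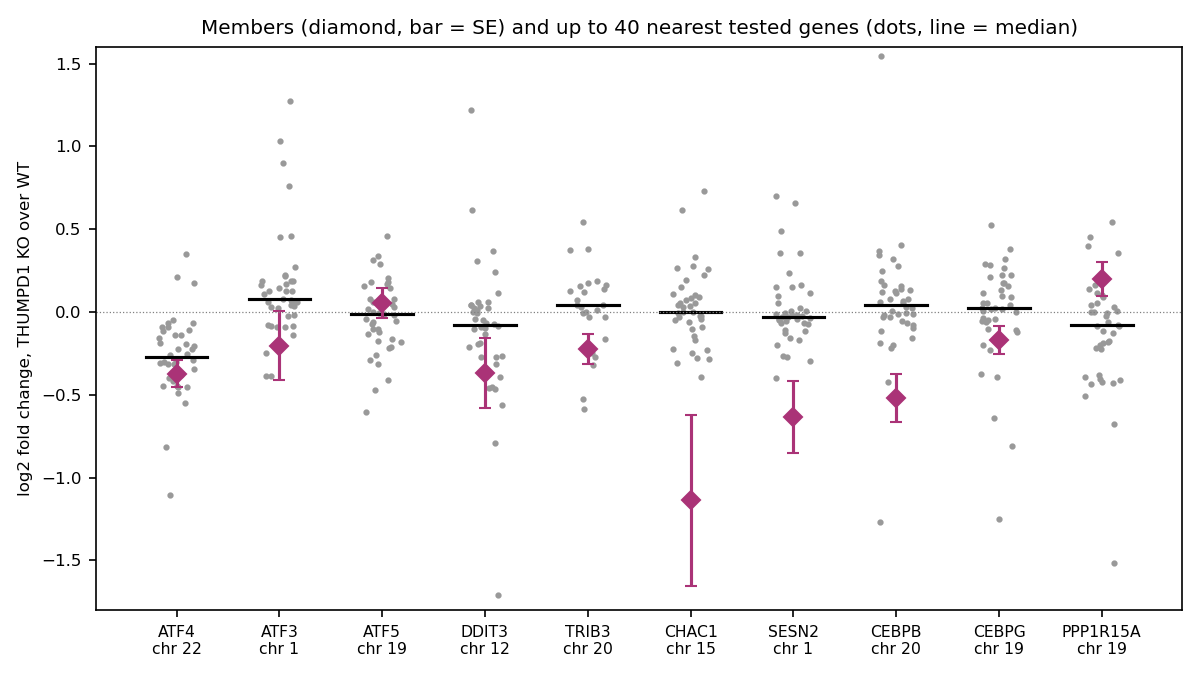
Log2 fold change of THUMPD1 KO over WT (y axis) for each regulator (diamond, bar = SE) and for up to 40 nearest tested genes on its chromosome (dots, line = median). Of the 385 values for neighbours, those at −2.98 and −2.20 lie beyond the axis. The neighbours of ATF4 are centred on −0.27 and those of the other regulators between −0.08 and 0.08.

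Among the C/EBP family partners of ATF4, CEBPB was the only regulator besides ATF4 called in the fit with genotype alone. CEBPB (chromosome 20, 50190830 to 50192668, plus strand), an intronless gene for a factor of inflammation, adipogenesis and stress, was at 36.7, 22.9 and 26.5 CPM in WT and at 22.4, 17.3 and 19.5 CPM in THUMPD1 KO. Each THUMPD1 KO library was below each WT library, by a narrow margin between WT replicate 2 and THUMPD1 KO replicate 1. The means were 28.7 CPM ± 7.13 in WT and 19.7 CPM ± 2.52 in THUMPD1 KO (SD, n = 3 each), and CEBPB fell by 0.52 on the log2 scale (SE 0.147, limma-voom adjusted p = 0.0232). The limma-voom call was lost without THUMPD1 KO replicate 2 (adjusted p = 0.114) or replicate 3 (adjusted p = 0.0757), with no CPM filter and with GC and length trends removed, though the log2 fold change stayed negative in all 17 alternative fits, between −0.67 and −0.33. The gene shares 231 of its 1839 exon bases with CEBPB-AS1 on the opposite strand, which had 11 to 30 counts per library.

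CEBPG and DDIT3 differed less between genotypes. CEBPG (chromosome 19, 33373685 to 33382686), a small bZIP protein that dimerizes with ATF4, was at 96.7, 75.4 and 78.4 CPM in WT and at 80.8, 70.8 and 71.7 CPM in THUMPD1 KO. The genotypes overlapped, because THUMPD1 KO replicate 1 exceeded WT replicates 2 and 3. For CEBPG the difference was −0.17 (log2, SE 0.082, adjusted p = 0.152 by limma-voom), with an adjusted p of 0.0136 in the paired limma-voom fit. DDIT3 (chromosome 12, 57516588 to 57521737, minus strand) encodes CHOP, the factor tied to death under lasting stress, and it had the lowest levels, 5.70, 3.22 and 3.03 CPM in WT and 3.89, 2.95 and 2.67 CPM in THUMPD1 KO. These stood for 86 to 240 expected counts per library. DDIT3 differed by −0.37 (log2, SE 0.211, adjusted p = 0.220 by limma-voom), and the paired fit gave an adjusted p of 0.0366. DDIT3 shares 355 of its 1307 exon bases with MARS1, an opposite-strand gene at a far higher level of 6381 to 10449 counts, and no source says whether strand was used in counting, so part of the DDIT3 count could come from MARS1.

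The bZIP factors ATF3 and ATF5 were not called in either fit. ATF3 (chromosome 1, 212565334 to 212620777), an early repressor and activator of stress genes, was at 36.0, 17.3 and 20.3 CPM in WT and at 23.03, 18.3 and 20.1 CPM in THUMPD1 KO. Only WT replicate 1 stood apart, and the other 5 libraries lay within 17.3 to 23.03 CPM. The log2 fold change of ATF3 was −0.20, with a 95% interval of −0.66 to 0.26 (limma-voom adjusted p = 0.506, paired adjusted p = 0.149). Without WT replicate 1 its direction turned, to 0.11. ATF5 (chromosome 19, 49928702 to 49933935), which like ATF4 is controlled by upstream reading frames and drives a mitochondrial stress response, was at 13.5, 16.3 and 13.7 CPM in WT and at 14.98, 14.1 and 15.8 CPM in THUMPD1 KO. The genotypes were interleaved, with a log2 fold change of 0.05 and a 95% interval of −0.15 to 0.26 (limma-voom adjusted p = 0.707). ATF5 shares 565 of its 2892 exon bases with NUP62 on the opposite strand, and NUP62 had 3747 to 5035 counts per library against 509 to 639 for ATF5.

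CHAC1 and SESN2, effectors that act on glutathione and on nutrient signalling, had the largest differences and the largest spread. CHAC1 (ENSG00000128965.13, chromosome 15, 40952962 to 40956512), an enzyme that degrades glutathione, was at 22.4, 4.62 and 6.22 CPM in WT and at 6.15, 3.42 and 3.44 CPM in THUMPD1 KO. WT replicate 1 held most of the difference in means, while THUMPD1 KO replicate 1 overlapped the lower WT libraries. WT averaged 11.1 CPM ± 9.85 and THUMPD1 KO 4.34 CPM ± 1.57 (SD, n = 3 each), which differed by −1.14 (log2, SE 0.514, adjusted p = 0.125 by limma-voom). Within pairs the ratio of THUMPD1 KO to WT was 0.274, 0.741 and 0.553, and the paired fit gave −1.35 (SE 0.211, limma-voom adjusted p = 8.507e-04). With both libraries numbered 1 left out, a setting chosen after the values were seen, CHAC1 was called at −0.71 (SE 0.156, limma-voom adjusted p = 0.00681). It was also called without WT replicate 2 (limma-voom adjusted p = 0.0262). Without WT replicate 1 alone it was not called, at −0.45 (limma-voom adjusted p = 0.133). All these settings gave a lower level in THUMPD1 KO, and the last was the nearest of them to 0.

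SESN2 showed the same arrangement at a higher level. SESN2 (chromosome 1, 28259518 to 28282491), a leucine-binding inhibitor of mTORC1 signalling, was at 122, 58.7 and 69.1 CPM in WT and at 58.5, 46.5 and 50.9 CPM in THUMPD1 KO. The highest THUMPD1 KO library was only just below the lowest WT library. The difference was −0.63 (log2, SE 0.218, adjusted p = 0.0533 by limma-voom), and in the paired fit −0.65 (SE 0.114, limma-voom adjusted p = 0.00162). Without the libraries numbered 1 it was −0.39 (SE 0.074, limma-voom adjusted p = 0.00280). SESN2 was called when any 1 of the WT libraries was left out, with limma-voom adjusted p of 0.0225, 0.00717 and 0.0489 without WT replicates 1, 2 and 3, and not when a THUMPD1 KO library was left out.

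TRIB3 and PPP1R15A, which feed back on the pathway, differed in opposite directions by small amounts. TRIB3 (chromosome 20, 362835 to 397559), a pseudokinase that restrains ATF4, was at 17.2, 13.6 and 15.1 CPM in WT and at 14.8, 11.9 and 12.4 CPM in THUMPD1 KO. The ratio within pairs was 0.860, 0.878 and 0.822, so each pair showed nearly the same decrease although the genotypes overlapped. TRIB3 differed by −0.22 (log2, SE 0.091, adjusted p = 0.0946 by limma-voom), with an adjusted p of 0.0277 in the paired limma-voom fit and of 0.0475 without WT replicate 2. Its paired call was lost when GC and length trends were removed (log2 fold change −0.16, limma-voom adjusted p = 0.0728). PPP1R15A (chromosome 19, 48872212 to 48876059), the inducible subunit GADD34 that directs protein phosphatase to eIF2α, was at 20.6, 15.5 and 15.4 CPM in WT and at 22.1, 17.96 and 18.4 CPM in THUMPD1 KO. THUMPD1 KO exceeded WT in every pair, by ratios of 1.07, 1.16 and 1.197, and WT replicate 1 lay inside the THUMPD1 KO range. PPP1R15A differed by 0.20 (log2, SE 0.104, adjusted p = 0.176 by limma-voom), with an adjusted p of 0.0301 in the paired fit, 0.0144 without the libraries numbered 1 and 0.0142 without WT replicate 1 alone.

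**Figure D3:**
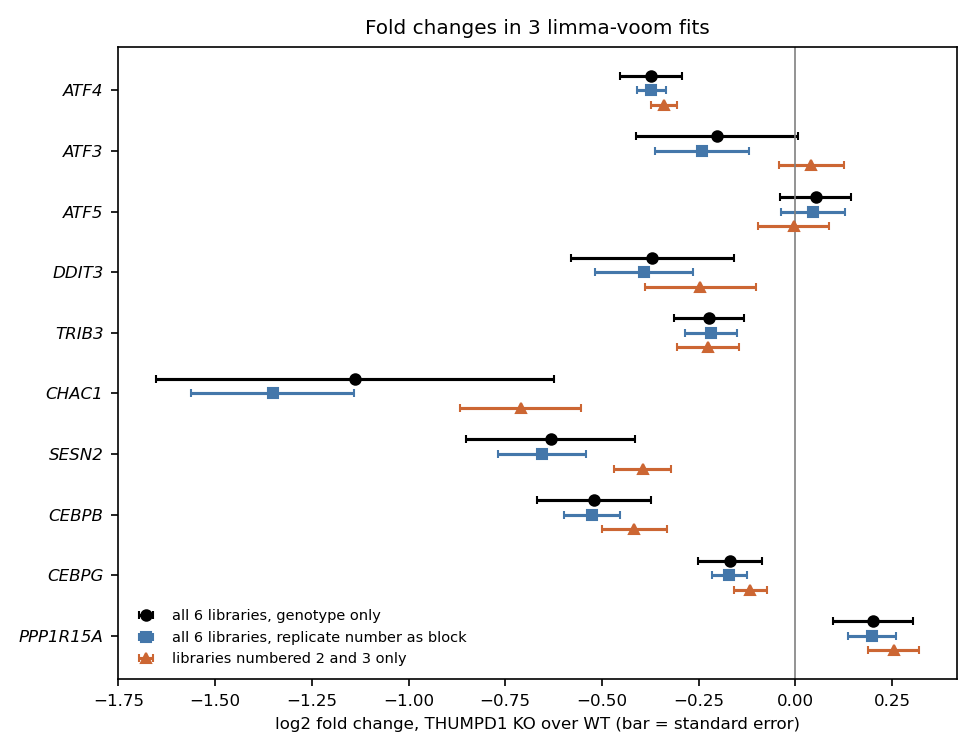
Log2 fold change of THUMPD1 KO over WT (x axis, bar = SE) for each regulator in 3 limma-voom fits: all 6 libraries with genotype only, all 6 with the replicate number as a block, and libraries numbered 2 and 3 only. CHAC1 moves from −1.14 to −1.35 with the block and to −0.71 without the libraries numbered 1, while ATF4 stays between −0.37 and −0.34.

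The residual SD of the limma-voom fit, which weights values by their expected precision, was high for the regulators. It lay between the 75.2nd (TRIB3) and the 99.8th (CHAC1 and SESN2) percentile of genes tested. The plain range of log2 CPM over all 6 libraries, which includes the genotype difference, lay between the 40.6th (ATF5) and the 99.6th (CHAC1) percentile. WT replicate 1 was the highest of all 6 libraries for 8 of 10 regulators, compared with 26.2% of genes tested. In both genotypes together, replicate 1 was the highest library of its genotype for 9 of 10 regulators, all but ATF5, compared with 28.9% of genes. CHAC1 in WT replicate 1 was 4.18-fold above the mean of WT replicates 2 and 3 (on the log2 scale, a difference of 2.06), and of all genes tested only 2, CHAC1 among them, had a difference of that size. For ATF3 and SESN2 the excess was 1.92-fold each, for DDIT3 1.82-fold and for CEBPB 1.49-fold. In THUMPD1 KO replicate 1 the excess over replicates 2 and 3 was smaller for each of these, 1.79-fold for CHAC1, 1.39-fold for DDIT3, 1.22-fold for CEBPB 1.204-fold for SESN2 and 1.2001-fold for ATF3. For all genes tested the median of the same difference was 0.05 in WT and 0.03 in THUMPD1 KO (log2). WT replicate 1 was the deepest WT library, at 42124848 total counts, and THUMPD1 KO replicate 1, at 38859251, lay between the other THUMPD1 KO libraries. The labels give no culture, extraction or run for any library, and what the numbers mark was not tested.

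**Figure D4:**
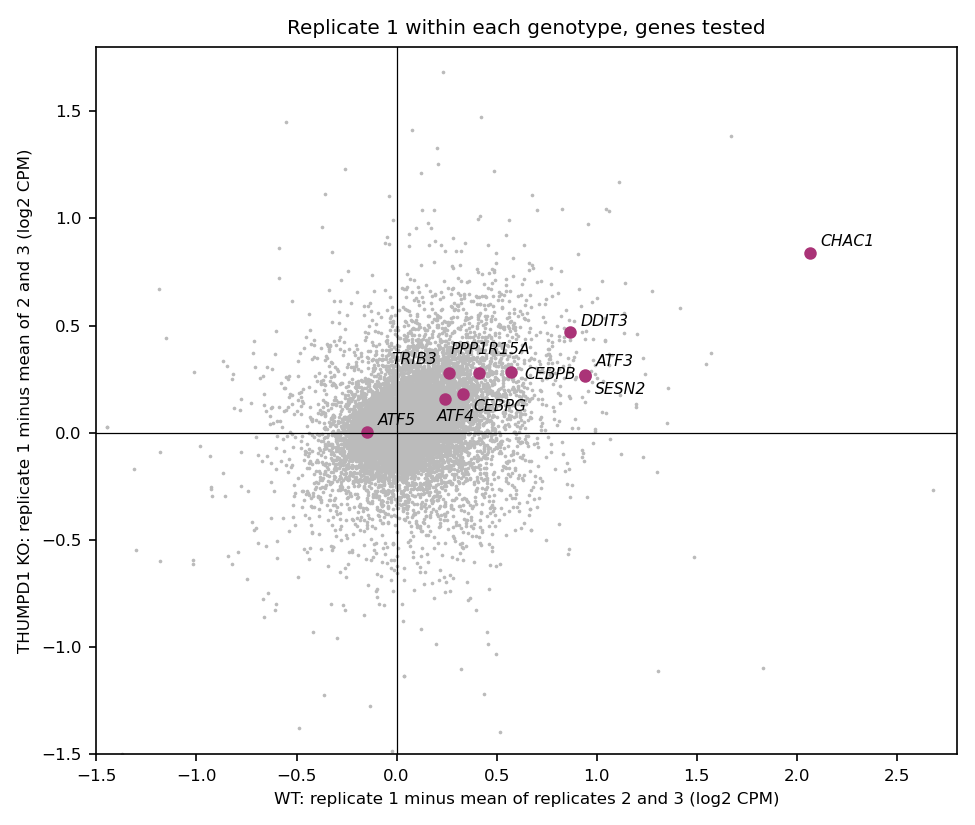
Excess of replicate 1 over the mean of replicates 2 and 3 (log2 CPM) in WT (x axis) and in THUMPD1 KO (y axis) for the regulators (large points) and 15067 other tested genes (grey, 12 outside the axes). CHAC1 lies at 2.06 and 0.84, and ATF5 is the only regulator with a negative value in WT.

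Leaving out WT replicate 1 alone showed how far the differences rested on it. In that fit 4 of 10 regulators were called, ATF4, SESN2 and CEBPB lower and PPP1R15A higher, where 4245 of all 15088 genes were called. The log2 fold change of CHAC1 then was −0.45, SESN2 −0.31, CEBPB −0.33, DDIT3 −0.11 and CEBPG −0.06. ATF4 was −0.27 and was called in each of the 17 alternative fits, with adjusted p between 6.959e-08 and 0.0352. None of these fits took account of chromosome 22, where 352 of 374 tested genes were lower with all libraries. With both libraries numbered 1 left out, 5 of 10 regulators were called, ATF4, CHAC1, SESN2 and CEBPB lower and PPP1R15A higher. In that setting 4884 of all 15088 genes were called. The calls of CHAC1 and SESN2 differed between fits, while the sign of their difference was negative in all 17.

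Per kilobase of exon, the order of the WT levels was ATF4, SESN2 (24.1 CPM per kilobase), CEBPG (20.6), CEBPB (15.6), ATF3 (6.14), CHAC1 (5.41), ATF5 (5.01), PPP1R15A (5.01), TRIB3 (4.65) and DDIT3 (3.05). In THUMPD1 KO, CEBPG (18.4 CPM per kilobase) stood above SESN2 (15.01), PPP1R15A (5.68) above ATF5 (5.17) and ATF3 (5.12), and CHAC1 (2.12) was last, just below DDIT3 (2.42). The ranges over WT libraries overlapped between neighbours in this order, except for ATF4 and SESN2 and for CEBPB and ATF3. Within each WT library, CEBPG was also above CEBPB and TRIB3 above DDIT3.

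The upstream and parallel branches of the pathway were examined with lists of genes, also chosen with earlier results of these data known. Among eIF2α kinases and their sensors, none of 10 was called by limma-voom with genotype alone, where 26.7% of all genes were. In that fit 2 of the 10 had an unadjusted p under 0.05, as had 5922 of all 15088 genes. The list had 1 call by edgeR and 1 by DESeq2, which called 3874 and 3668 of all genes. IMPACT, a GCN2 inhibitor, had a log2 fold change of −0.19 (limma-voom adjusted p = 0.0686), PRKRA, an activator of PKR, of 0.15 (limma-voom adjusted p = 0.0676) and OMA1, a mitochondrial protease upstream of HRI, of −0.10 (limma-voom adjusted p = 0.211). In the paired limma-voom fit, IMPACT (adjusted p = 0.00690) and PRKRA (adjusted p = 0.0384) were called. Of 16 genes for eIF2, its exchange factor eIF2B and the eIF2α phosphatase, 2 were called, both higher, a share below the 26.7% of all genes called. They were EIF2S1, which encodes eIF2α itself, at 0.21 (limma-voom adjusted p = 0.0255) and EIF2B2, a subunit of eIF2B, at 0.28 (limma-voom adjusted p = 0.0132). EIF2B3, another eIF2B subunit, had a log2 fold change of −0.15 (limma-voom adjusted p = 0.0640). In the paired fit 5 of the 16 were called, 4 higher and 1 lower, where 35.1% of all genes were called. In the fit with genotype alone, both higher calls were lost when either of THUMPD1 KO replicates 2 and 3 was omitted, and 1 gene of the list was called without WT replicate 3.

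Other bZIP transcription factors changed in both directions. Of 44 listed, 36 were tested and 13 were called, 9 lower and 4 higher, where 26.7% of all genes were called. Without WT replicate 3 or without THUMPD1 KO replicate 2 the number called was 6, and it was 7 without THUMPD1 KO replicate 3. Over all genes these fits called 2724, 2663 and 2799, against 4025 with all libraries. XBP1, the factor spliced by IRE1 in the unfolded protein response, fell from 127.8 CPM to 62.7 CPM (log2 fold change −1.03, limma-voom adjusted p = 1.586e-05), and it lies on chromosome 22 as ATF4 does. CREB3L2, a membrane-bound factor of the endoplasmic reticulum, fell by 0.33 on the log2 scale (limma-voom adjusted p = 5.554e-04). Of 5 family relatives of the effectors, 3 were called, where 26.7% of all genes were. TRIB2, a paralogue of TRIB3, rose from 2.99 to 8.64 CPM (log2 fold change 1.498, limma-voom adjusted p = 1.930e-05), whereas TRIB1 (−0.36, limma-voom adjusted p = 0.00266) and the SESN2 paralogue SESN3 (−0.31, limma-voom adjusted p = 0.00136) fell. In the ATF6 and XBP1 arms of the unfolded protein response, 6 of 14 genes were called, 3 in each direction, against 26.7% of all genes. Without WT replicate 3, 3 of the 14 were called, where 2724 of all 15088 genes were. The chaperone genes SDF2L1 at −0.43, CALR at 0.25 and DNAJB11 at 0.24 had the smallest adjusted p. SDF2L1 and another of the lower calls also lie on chromosome 22, where most tested genes were lower.

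Genes known to respond to ATF4 resembled the regulators. Of 40 listed, 37 were tested, 34 had a negative log2 fold change, and 18 were called, 17 lower and MAP1LC3B higher. Of all 15088 genes, 7002 had a negative log2 fold change and 26.7% were called, 13.0% lower. Their median log2 fold change was −0.25, and in the paired fit 28 were called, 27 of them lower, where 35.1% of all genes were called and 16.7% lower. DDIT4 (−1.49), an inhibitor of mTORC1, PYCR1 (−0.61), an enzyme of proline synthesis, and XPOT (−0.36), a tRNA exporter, had the smallest adjusted p. ASNS, asparagine synthetase, was at 238, 153 and 164 CPM in WT and at 179, 106 and 111 CPM in THUMPD1 KO, with replicate 1 the highest of each genotype. ASNS differed by −0.51 (log2, SE 0.195) and was not called with genotype alone (limma-voom adjusted p = 0.0756). It was called in the paired fit (limma-voom adjusted p = 2.0e-05). WT replicate 1 was the highest of the 6 libraries for 35 of the 37 tested genes (94.6%), and the median excess of WT replicate 1 was 0.38 on the log2 scale. The number called ranged from 9 to 23 when a single library was left out, lowest without THUMPD1 KO replicate 2 and highest without WT replicate 2. In these fits 2663 and 3243 of all 15088 genes were called, against 4025 with all libraries. Of the 32 such genes with a promoter window, 8 (25%) held TGATGCAA.

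CHAC1 had the widest range of log2 levels over the libraries among the regulators, 2.71, and the genes with the most similar pattern were sought for it. Over the 6 libraries, the 3 tested genes outside the regulators with the highest Pearson correlation of log2 CPM with CHAC1 were MARS1 (0.998), CTH (0.997) and GARS1 (0.997). The 6 points share genotype and replicate number, and the correlation is a description of these libraries. CTH, an enzyme of cysteine synthesis, was at 41.5, 17.8 and 20.1 CPM in WT and at 20.5, 13.9 and 14.0 CPM in THUMPD1 KO. MARS1 and GARS1 encode the tRNA synthetases for methionine and glycine, and with ranges of 0.33 and 0.46 on the log2 scale they varied with CHAC1 over a much smaller span. All 3 genes are on the list of ATF4-responsive genes, and MARS1 is the gene whose exons overlap DDIT3.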

How the data were processed

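RNA-seq of 6 HEK-293T libraries (ribosomal RNA-depleted total RNA, stranded kit, paired-end) was analysed. Reads were aligned by the authors with STAR to GRCh38, and the deposited values are RSEM expected counts per gene, not scaled between libraries, and their versions and strand setting are not given in the sources used here. Positions and exon lengths came from GENCODE 44, which held 58472 (99.3%) of the IDs, whereas the methods name GENCODE 46. Promoter sequences came from RefSeq starts on hg38.

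Counts were filtered at 1 CPM, quantile normalized, and limma-voom was run (limma 3.58.1, R 4.3.3), steps that the study also names. The study does not state how many libraries had to pass the filter or the terms of its fit. Here at least 1 CPM in at least 3 libraries was required, and genotype was the only term. Tests were two-sided with Benjamini-Hochberg adjustment over 15088 genes and a threshold of 0.05. CPM were computed here from deposited counts and library totals. Scripts were tested on simulated data. Members and lists were chosen with earlier results of these data known.

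Named genes were THUMPD1, the 10 members, ASNS, up to 3 genes per list with the smallest adjusted p, and the 3 genes most like the member with the widest range. A gene that this rule names is not reported here. MAP1LC3B, the marker genes and overlapping genes were named outside this rule, MAP1LC3B after its value was seen.

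Replicate numbers were checked by correlating deviations from genotype means, which gave 0.171, 0.147 and 0.138 for same-numbered libraries and −0.140 to 0.0194 for others. All same-numbered pairs exceeded 0.1, so numbers were taken to pair libraries. The deviations cancel within each genotype, so these correlations depend on one another and are a weak check of the pairing. Other settings were the replicate block, TMM and plain library sizes, other CPM filters, edgeR 4.0.16 and DESeq2 1.42.0 on rounded counts, removal of GC and length trends (with and without the block), and each library left out. Omission of both libraries numbered 1 was added after seeing the data.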

Additional observations from a re-analysis of the deposited data

How the results depend on the processing

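The number of regulators called changed with the processing. Against 2 with genotype alone, it was 8 with the replicate block, 7 (without TRIB3) with the block and the GC and length trends removed, 1 with these trends removed and no block, 1 with no CPM filter, and 5 with libraries numbered 2 and 3 only. Leaving out 1 library gave 1 to 5 regulators, the fewest when THUMPD1 KO replicate 2 or 3 was left out, 4 when WT replicate 1 was and 5 when WT replicate 2 was. The number of genes called, 4025, lay between 2663, with THUMPD1 KO replicate 2 omitted, and 4245, with WT replicate 1 omitted, when 1 library was left out. It was 5297 with the block, 4462 with GC and length trends removed, 5657 with both and 4884 with libraries numbered 2 and 3 only. Without WT replicate 1 the log2 fold change of ATF3 reversed to 0.1146 and that of ATF5 to −0.0238, and with numbers 2 and 3 only to 0.0414 and −0.0043. Without WT replicate 2 they were −0.4151 and 0.1471, the other end of the range over single libraries left out. The causes were not tested. Every other regulator kept its direction in all 17 alternatives. SESN2 was also called with TMM library sizes (adjusted p = 0.0357) and by edgeR (adjusted p = 0.0243), and CEBPB was not with no CPM filter (limma-voom adjusted p = 0.0662) or with GC and length trends removed (0.0667). No setting moved the median log2 fold change of all genes above 0.03. At these depths DDIT3, CHAC1 and TRIB3 rested on the fewest counts.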
